A study of Homo sapiens with 28 samples.

Results

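A set of 10 plasma membrane amino acid transporters were followed as RNA in LNCaP cells under androgen and inhibitors of the Mediator kinases. They are SLC1A4, SLC1A5, SLC3A2, SLC7A5, SLC7A11, SLC38A1, SLC38A2, SLC38A4, SLC43A1 and SLC6A19, which were taken by gene symbol and make up 10 of the 61815 human genes in the deposited table. All 10 had enough counts to be tested in both experiments. SLC38A4 passed the count filter only through the groups with R1881, since its libraries without R1881 held 0 to 4 counts. LNCaP is 1 human prostate cancer cell line that responds to androgen, and per the labels all cells were wild type. Every culture was first kept for 72 h in medium with charcoal-stripped serum (CSS), which is depleted of steroids. In the 24 h experiment, cells received 0.1% DMSO (vehicle), 1 µM Senexin B, 0.1 nM R1881 or R1881 together with Senexin B, with 3 libraries in each group. In the 72 h experiment, they received 0.1% DMSO, 500 nM SNX631, 1 nM R1881 or R1881 together with SNX631, with 4 libraries in each group. R1881 is a synthetic androgen, and Senexin B and SNX631 both block CDK8 and CDK19, the kinases of the Mediator complex. Doses are those of the labels, since the study's text gives another dose for Senexin B. Time, R1881 dose, inhibitor and experiment differed together between the experiments and cannot be told apart.

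Amino acid transporters carry amino acids across membranes, and cells use several that overlap in what they carry. Exchangers such as SLC7A5 and SLC1A5 swap 1 amino acid for another, whereas the sodium-coupled carriers of the SLC38 family build up a store of small neutral amino acids inside the cell. SLC3A2 carries no amino acids by itself but is the heavy chain that brings SLC7A5 and SLC7A11 to the surface. Transcription of many transporters is induced through ATF4, the factor of the amino acid response, which binds composite C/EBP-ATF sites.

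Promoter sequences are shown because 4 of the 10 transporters held the core of such a site near an annotated start. The core searched was TGATGNAAN on both strands, in RefSeq windows (GRCh38.p14) of 250 bases before and 50 after each start. Of the members, 9 had windows, 16 in all, and the core was found in 4 of them, against 3.61% of all 35116 windows. A match describes letters only, and binding was not measured. In the first 2 sequences below the capitals mark the core, which begins 8 bases before a start of SLC1A4 (chr2:64989149-64989428, plus strand, core on the opposite strand) and 4 bases before a start of SLC38A1 (chr12:46266487-46266766, minus strand).
SLC1A4: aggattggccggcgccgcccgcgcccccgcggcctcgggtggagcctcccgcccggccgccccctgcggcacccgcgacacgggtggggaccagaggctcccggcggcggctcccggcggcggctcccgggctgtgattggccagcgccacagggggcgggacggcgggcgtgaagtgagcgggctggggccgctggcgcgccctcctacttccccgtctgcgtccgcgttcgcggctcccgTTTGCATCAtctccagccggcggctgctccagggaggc
SLC38A1: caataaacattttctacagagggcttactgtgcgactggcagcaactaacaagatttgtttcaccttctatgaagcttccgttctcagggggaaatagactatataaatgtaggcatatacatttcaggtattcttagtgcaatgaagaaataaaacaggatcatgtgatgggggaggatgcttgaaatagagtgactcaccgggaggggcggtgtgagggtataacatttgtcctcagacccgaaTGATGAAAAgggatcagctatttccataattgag
Shorter stretches are given for SLC3A2 (chr11:62881725-62881748, plus strand), where the core begins 36 bases after a start and lies on the opposite strand, and for SLC1A5 (chr19:46784893-46784921, minus strand), where it begins 97 bases before a start.
SLC3A2: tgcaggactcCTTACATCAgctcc
SLC1A5: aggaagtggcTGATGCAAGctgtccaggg
SLC38A4 is shown as the transporter with the widest range of levels when taken as a ratio, not in CPM (chr12:46825968-46826247, minus strand). Its capitals mark 1 short androgen response motif (AGAACA, on the opposite strand), which 14.8% of all windows hold.
SLC38A4: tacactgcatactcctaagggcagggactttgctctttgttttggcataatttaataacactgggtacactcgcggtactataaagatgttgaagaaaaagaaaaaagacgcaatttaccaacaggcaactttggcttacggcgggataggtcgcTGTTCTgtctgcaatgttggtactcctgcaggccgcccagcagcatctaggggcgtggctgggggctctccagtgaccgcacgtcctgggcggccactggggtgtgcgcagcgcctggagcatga
The full palindrome, AGAACA and TGTTCT with 3 bases between, was in none of the 16 windows and in 0.00285% of all windows.

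Total counts ranged from 9846595 to 33809419 per library, and the deepest was vehicle replicate 3 at 24 h, above a next highest of 15248512. Levels are given as CPM, the count scaled to a common library size. The luminal markers FOLH1, HOXB13, TMPRSS2, KRT8 and KRT18 had counts in every library. Of the 3 basal markers, KRT5 was at 0 in every group and the summed level was at most 0.447 CPM. The 3 immune markers summed to at most 1.40 CPM. The 4 stromal markers summed to between 8.23 and 32.8 CPM per library and were mostly COL1A1, while DCN held at most 1 count in any library. At 24 h their sum was 24.0 to 25.6 CPM with vehicle and 15.4 to 16.8 with R1881, the libraries with Senexin B alone, the lowest at 11.8, lay below these, and R1881 with Senexin B was lowest at 8.23 to 10.1. At 72 h it was 29.2 to 32.8 with vehicle, 19.0 to 22.3 with SNX631, 17.7 to 25.2 with R1881 and 11.4 to 13.8 with both, and its part in the results was not tested. In bulk RNA, fewer cells and less RNA per cell cannot be told apart. A gene was called at an edgeR false discovery rate (FDR) under 0.01 with a fold change over 1.5. The 10 genes were chosen by their transport role with R1881 and inhibitor effects in these libraries already known, so counts of called genes describe them, are read beside the share of all genes called, and support nothing about the choice.

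Per kilobase of exon, SLC38A2 had the highest level of the 10 in all 8 groups and SLC38A1 the next. With vehicle at 24 h, SLC38A2 stood at 51.1 and SLC38A1 at 24.6 CPM per kb, followed by SLC3A2 at 16.5 and SLC1A5 at 6.33 CPM per kb. SLC38A4 was lowest of the 10 in every group without R1881. With R1881 alone, the lowest was SLC7A5 at 24 h (0.487 CPM per kb) and SLC6A19 at 72 h (0.536 CPM per kb), whereas SLC43A1 stood at 13.1 and 16.9 CPM per kb. The summed CPM of the 10 genes was 762 ± 10.6 with vehicle and 1036 ± 19.3 with R1881 at 24 h (SD, n = 3), and 872 ± 3.62 and 1292 ± 25.8 at 72 h (SD, n = 4). It was highest with R1881 and SNX631, at 1382 ± 33.8 (SD, n = 4). The sum is not scaled by length, and SLC38A1 and SLC38A2 weigh most in it. At 24 h they held 246 and 338 CPM with vehicle and 299 and 440 CPM with R1881.

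**Figure D1:**
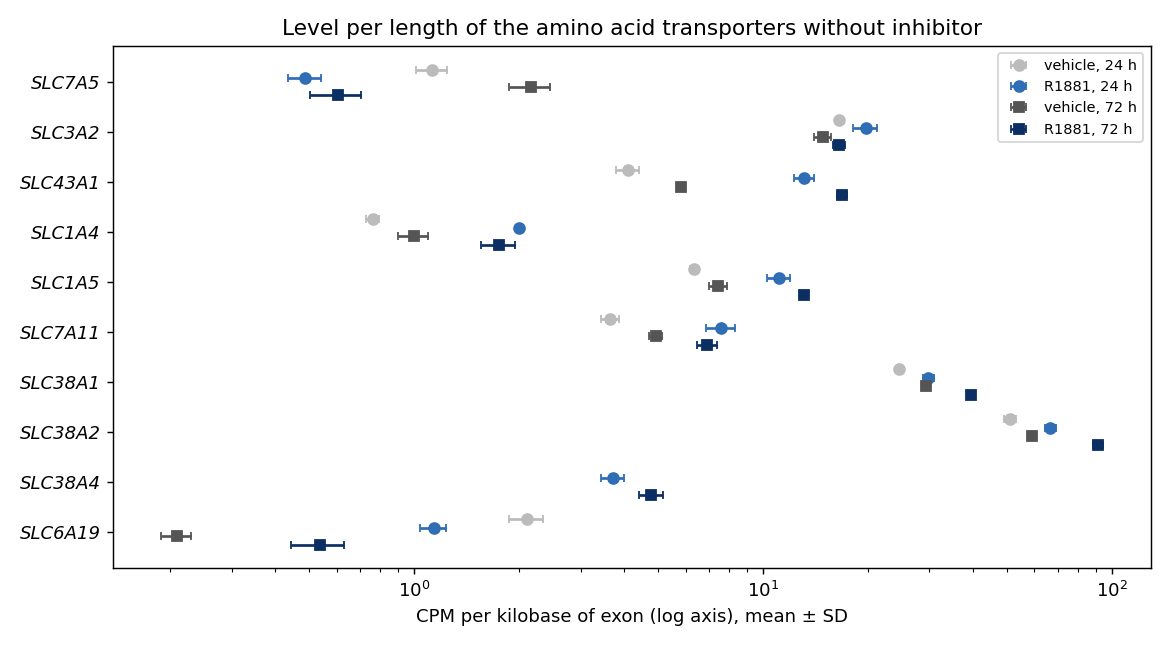
Level of each transporter per kilobase of exon (log axis) with vehicle and with R1881, as the mean and SD of 3 libraries at 24 h and 4 at 72 h. SLC38A2 lies furthest to the right and SLC7A5 moves to the left with R1881. The vehicle points of SLC38A4 are left out because its counts were 0 to 4.

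The first question was which transporters responded to androgen. At 24 h, R1881 raised 5 transporters and lowered 2, when 19.0% of all 15948 genes tested were called (9.81% higher, 9.19% lower). At 72 h it raised 6 and lowered 1, when 19.8% of 16074 genes were called (9.70% higher, 10.1% lower). The median log2 fold change of the 10 was 0.60 at 24 h and 0.72 at 72 h, and over all genes tested at 24 h it was -0.016. SLC1A4, SLC1A5, SLC43A1 and SLC38A4 rose in both experiments, SLC7A5 fell in both, and SLC6A19 fell at 24 h and rose at 72 h. R1881 and vehicle libraries did not overlap for 10 of 10 transporters at 24 h and 9 of 10 at 72 h, when 62.0% and 54.8% of all genes were also without overlap. SLC38A4 enters these counts and medians, and the counts with R1881 under inhibitor. It passed the count filter only through its libraries with R1881, so its part in them supports nothing.

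In cells that also received an inhibitor, R1881 raised 4 transporters and lowered 2 under Senexin B, when 18.9% of all genes were called (9.97% higher, 8.90% lower). Under SNX631 it raised 5 and lowered 1, when 22.0% were called (10.1% higher, 12.0% lower). The groups did not overlap for 10 of 10 transporters under Senexin B and 9 of 10 under SNX631, when 62.2% and 57.8% of all genes did not. SLC7A11 had a log2 fold change of 0.49 ± 0.06 under Senexin B (SE, FDR 1.24e-08 by edgeR), under the fold limit, and of 0.76 ± 0.06 under SNX631 (SE, FDR 1.31e-13 by edgeR).

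**Figure D2:**
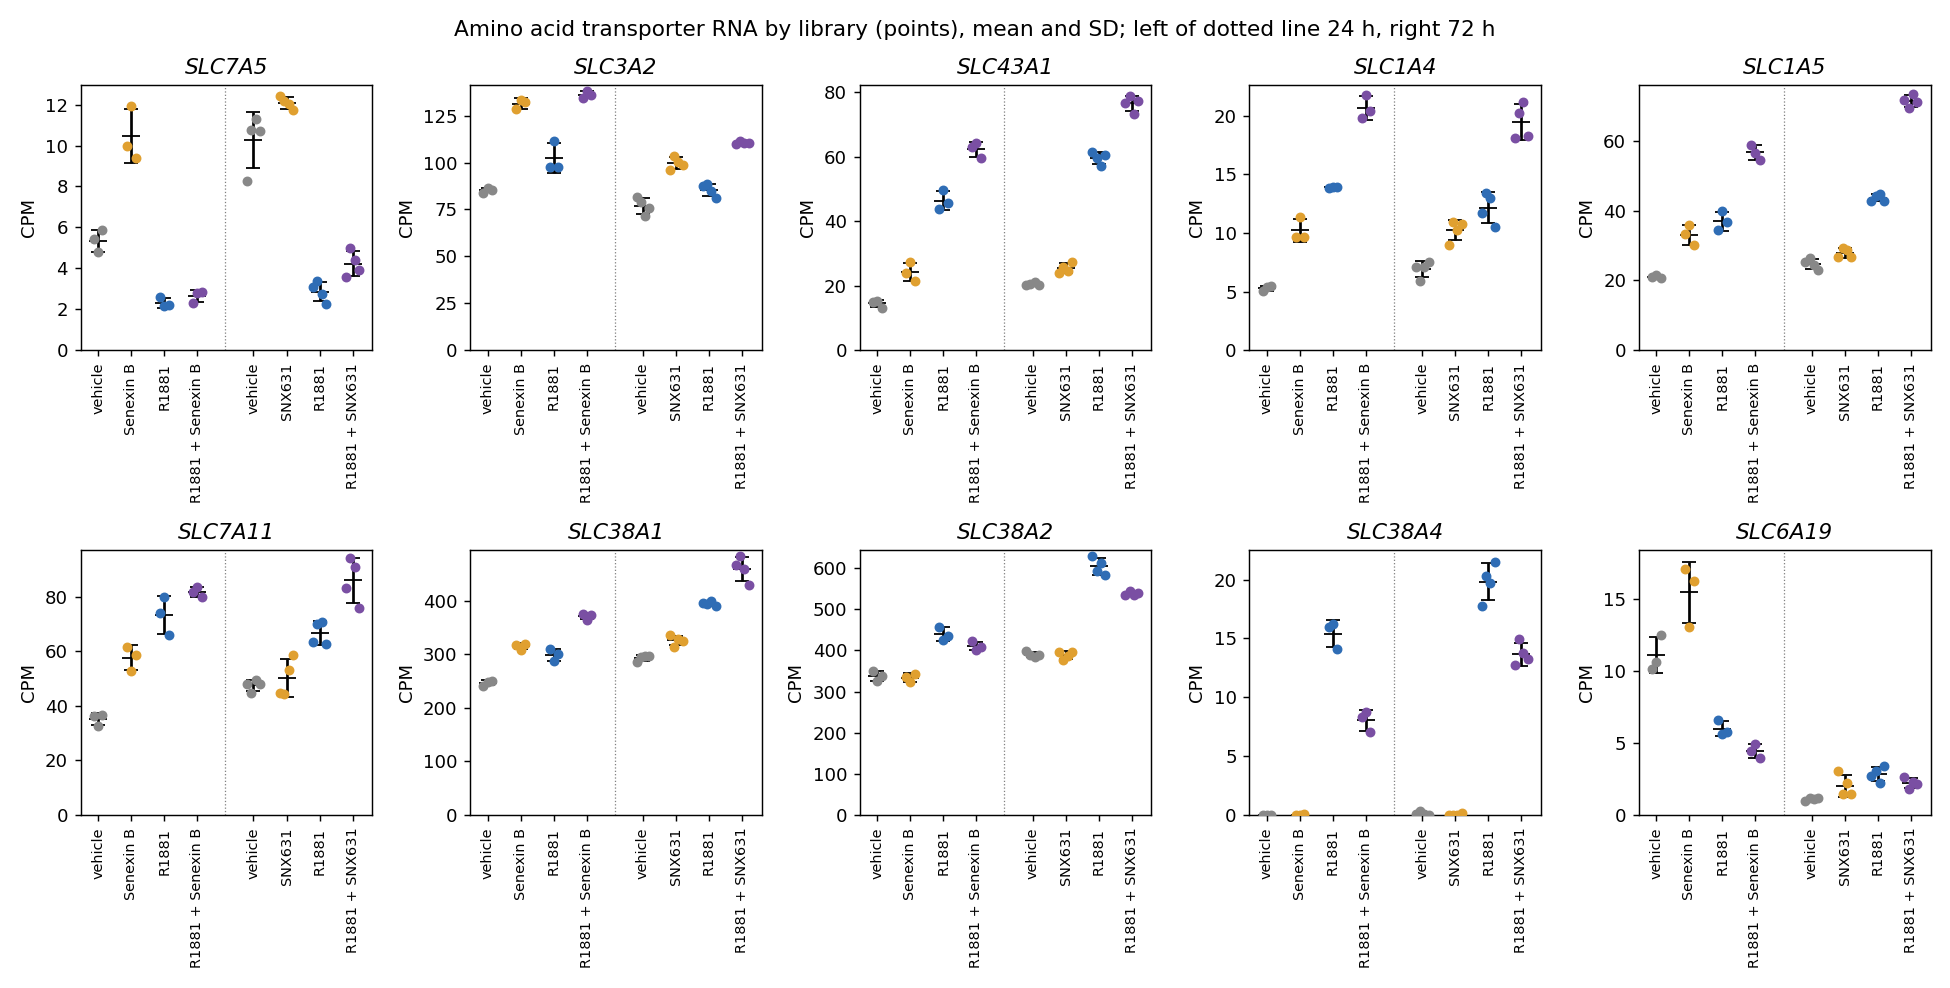
CPM of each transporter in every library (points) with the mean and SD of each group, 3 libraries per group at 24 h and 4 at 72 h. SLC7A5 is low in all groups with R1881, SLC38A4 is near 0 in all groups without it, and SLC6A19 is lower in the 72 h experiment than in the 24 h experiment.

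The carriers of large neutral amino acids moved apart. SLC7A5 (LAT1, ENSG00000103257.9, chromosome 16, 87830023 to 87869488, minus strand, GRCh38) imports leucine and other large neutral amino acids in exchange for glutamine. With vehicle at 24 h its libraries held 5.41, 4.78 and 5.86 CPM, and with R1881 2.60, 2.15 and 2.19 CPM. At 72 h the vehicle libraries held 8.25, 10.8, 11.3 and 10.7 CPM and the R1881 libraries 3.11, 3.36, 2.74 and 2.25 CPM. Every R1881 library lay below every vehicle library in both experiments. The log2 fold change was -1.25 ± 0.17 at 24 h (SE, FDR 1.78e-07 by edgeR) and -1.85 ± 0.13 at 72 h (SE, FDR 2.93e-15 by edgeR). The fall was also called under Senexin B (-1.97 ± 0.15, FDR 7.15e-13 by edgeR) and under SNX631 (-1.52 ± 0.11, FDR 4.15e-15 by edgeR). SLC7A5 held 24 to 204 counts per library, and its pseudogene copy SLC7A5P2 held 6 to 27, so reads shared between them may enter these values.

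SLC43A1 (LAT3, ENSG00000149150.9, chromosome 11, 57484534 to 57515786, minus strand) is a carrier of branched-chain amino acids and phenylalanine that needs neither a heavy chain nor an exchange partner. Its vehicle libraries held 15.1, 15.2 and 13.2 CPM at 24 h, and its R1881 libraries 43.8, 49.6 and 45.8 CPM. The vehicle libraries at 72 h held between 20.2 and 21.1 CPM, and the R1881 libraries between 57.1 and 61.5 CPM. The groups stood far apart and did not overlap. The log2 fold change of SLC43A1 was 1.72 ± 0.07 at 24 h (SE, FDR 2.14e-19 by edgeR) and 1.53 ± 0.05 at 72 h (SE, FDR 1.81e-25 by edgeR). The difference between the experiments was -0.18 ± 0.09 (SE, FDR 0.202 by edgeR).

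SLC3A2 (4F2hc or CD98, ENSG00000168003.19, chromosome 11, 62856102 to 62888875, plus strand), the heavy chain of SLC7A5, was not called with R1881. It held 84.0, 86.6 and 85.6 CPM with vehicle and 97.7, 111 and 97.5 CPM with R1881 at 24 h, a log2 fold change of 0.26 ± 0.04 (SE, FDR 8.34e-06 by edgeR, under the fold limit). At 72 h the log2 fold change was 0.15 ± 0.04 (SE, FDR 0.00112 by edgeR, under the fold limit). The RNA of the light chain thus fell while that of its heavy chain stayed within 1.19-fold of vehicle at 24 h and 1.11-fold at 72 h.

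The exchangers of small neutral amino acids and cystine were higher with androgen. SLC1A4 (ASCT1, ENSG00000115902.11, chromosome 2, 64988477 to 65023865, plus strand) exchanges alanine, serine and cysteine. It held 5.03, 5.35 and 5.46 CPM with vehicle and 13.8, 13.9 and 13.9 CPM with R1881 at 24 h, a rise of 1.37 ± 0.10 on the log2 scale (SE, FDR 2.15e-13 by edgeR). At 72 h the vehicle libraries held 5.94 to 7.54 CPM and the R1881 libraries 10.5 to 13.4 CPM, a rise of 0.81 ± 0.10 (SE, FDR 8.96e-09 by edgeR). No library of the groups overlapped in either experiment.

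SLC1A5 (ASCT2, ENSG00000105281.12, chromosome 19, 46774883 to 46788594, minus strand) is a main route of glutamine entry in many tumour cells. Its libraries held 20.9, 21.7 and 20.7 CPM with vehicle and 34.4, 39.9 and 36.7 CPM with R1881 at 24 h. On the log2 scale the rise was 0.82 ± 0.07 at 24 h (SE, FDR 3.84e-12 by edgeR) and 0.81 ± 0.05 at 72 h (SE, FDR 1.17e-16 by edgeR). The effects of the experiments differed by -0.00091 ± 0.080 (SE, FDR 0.998 by edgeR).

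SLC7A11 (xCT, ENSG00000151012.13, chromosome 4, 138164097 to 138242349, minus strand) imports cystine, the precursor for glutathione, in exchange for glutamate. At 24 h it held 36.2, 32.8 and 36.8 CPM with vehicle and 74.0, 79.9 and 66.0 CPM with R1881, a rise of 1.04 ± 0.06 on the log2 scale (SE, FDR 8.58e-16 by edgeR). At 72 h its log2 fold change was 0.49 ± 0.07 (SE, FDR 7.25e-08 by edgeR), under the fold limit, with 44.6 to 49.4 CPM in vehicle libraries and 62.6 to 70.8 CPM in R1881 libraries. The effect at 72 h minus that at 24 h was -0.55 ± 0.10 (SE, FDR 0.000121 by edgeR), also under the fold limit. An antisense gene, SLC7A11-AS1, overlaps its exons and held at most 2 counts.

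The SLC38 members lie next to each other on the minus strand of chromosome 12, SLC38A1 (46183063 to 46270017), SLC38A2 (46358189 to 46372867) and SLC38A4 (46764761 to 46832408). The gap is 88.2 kb between SLC38A1 and SLC38A2 and 392 kb between SLC38A2 and SLC38A4. These neighbours differed widely in the size of their response. SLC38A1 (SNAT1), a sodium-coupled importer of glutamine, held 241, 248 and 250 CPM with vehicle and 309, 288 and 300 CPM with R1881 at 24 h. Its log2 fold change was 0.27 ± 0.03 at 24 h (SE, FDR 1.69e-08 by edgeR) and 0.42 ± 0.03 at 72 h (SE, FDR 5.12e-16 by edgeR), both under the fold limit.

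SLC38A2 (SNAT2) is a sodium-coupled carrier whose RNA is known to respond to amino acid supply. It held 350, 325 and 338 CPM with vehicle and 458, 426 and 436 CPM with R1881 at 24 h, a log2 fold change of 0.38 ± 0.03 (SE, FDR 3.89e-11 by edgeR, under the fold limit). At 72 h it rose from between 384 and 399 CPM to between 583 and 630 CPM, by 0.63 ± 0.02 on the log2 scale (SE, FDR 9.25e-24 by edgeR). That call stands close to the fold limit, and with library totals as the only scaling the value was 0.52.

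SLC38A4 (SNAT4, ENSG00000139209.16), best known from liver, went from near absence to a measured level, and it is counted among the called genes above. Its fitted fold changes and FDRs for R1881 are not given, because it was already known as one of the most androgen-responsive genes here and its counts without R1881 were 0 to 4. It had 0 counts in all 3 vehicle libraries at 24 h and 16.0, 16.2 and 14.1 CPM with R1881, so it was at least 54.1-fold higher against a floor of 3 counts in the shallowest vehicle library. At 72 h the vehicle libraries held 1, 4, 1 and 0 counts, and the R1881 libraries 17.7, 20.3, 19.7 and 21.5 CPM. The ratio of summed counts per effective library size at 72 h was 165 (95% exact conditional binomial interval 75.6 to 451). It was 305 under Senexin B (54.3 to 12093) and 337 under SNX631 (93.1 to 2791), where 1 and 2 counts in all were found without R1881. Intervals and floors cover counting error only.

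SLC6A19 responded in opposite directions in the experiments. It encodes B0AT1, the sodium-dependent carrier of neutral amino acids known from kidney and small intestine (ENSG00000174358.16, chromosome 5, 1201595 to 1225117, plus strand). At 24 h it held 10.2, 10.6 and 12.5 CPM with vehicle and 6.59, 5.63 and 5.78 CPM with R1881. At 72 h it held 0.945, 1.20, 1.10 and 1.15 CPM with vehicle and 2.21 to 3.38 CPM with R1881 (median 2.86). The libraries did not overlap in either experiment, and the 72 h vehicle libraries rested on 11 to 16 counts each. On the log2 scale SLC6A19 fell by 0.94 ± 0.13 at 24 h (SE, FDR 1.12e-07 by edgeR) and rose by 1.35 ± 0.23 at 72 h (SE, FDR 4.96e-06 by edgeR).

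The effect of R1881 on SLC6A19 at 72 h minus that at 24 h was 2.29 ± 0.27 on the log2 scale (SE, FDR 9.87e-09 by edgeR), and SLC6A19 was the 1 transporter called in this difference, when 1.88% of 16672 genes were (0.570% higher, 1.31% lower). Under inhibitor the difference was 1.93 ± 0.25 (SE, FDR 1.10e-07 by edgeR), again the 1 transporter called, when 2.22% of genes were (0.492% higher, 1.73% lower). Under Senexin B, R1881 lowered SLC6A19 (log2 fold change -1.81 ± 0.13, SE, FDR 2.05e-13 by edgeR), whereas under SNX631 its log2 fold change was 0.11 ± 0.21 (SE, FDR 0.664 by edgeR).

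Collectrin (CLTRN), which helps B0AT1 reach the cell surface in kidney, was low. CLTRN held 1.72 ± 0.0245 CPM with vehicle at 24 h (SD, n = 3) and was not called with R1881 in either experiment. SLC3A1, the heavy chain of the cystine and dibasic amino acid carrier, had too few counts to be tested.

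**Figure D3:**
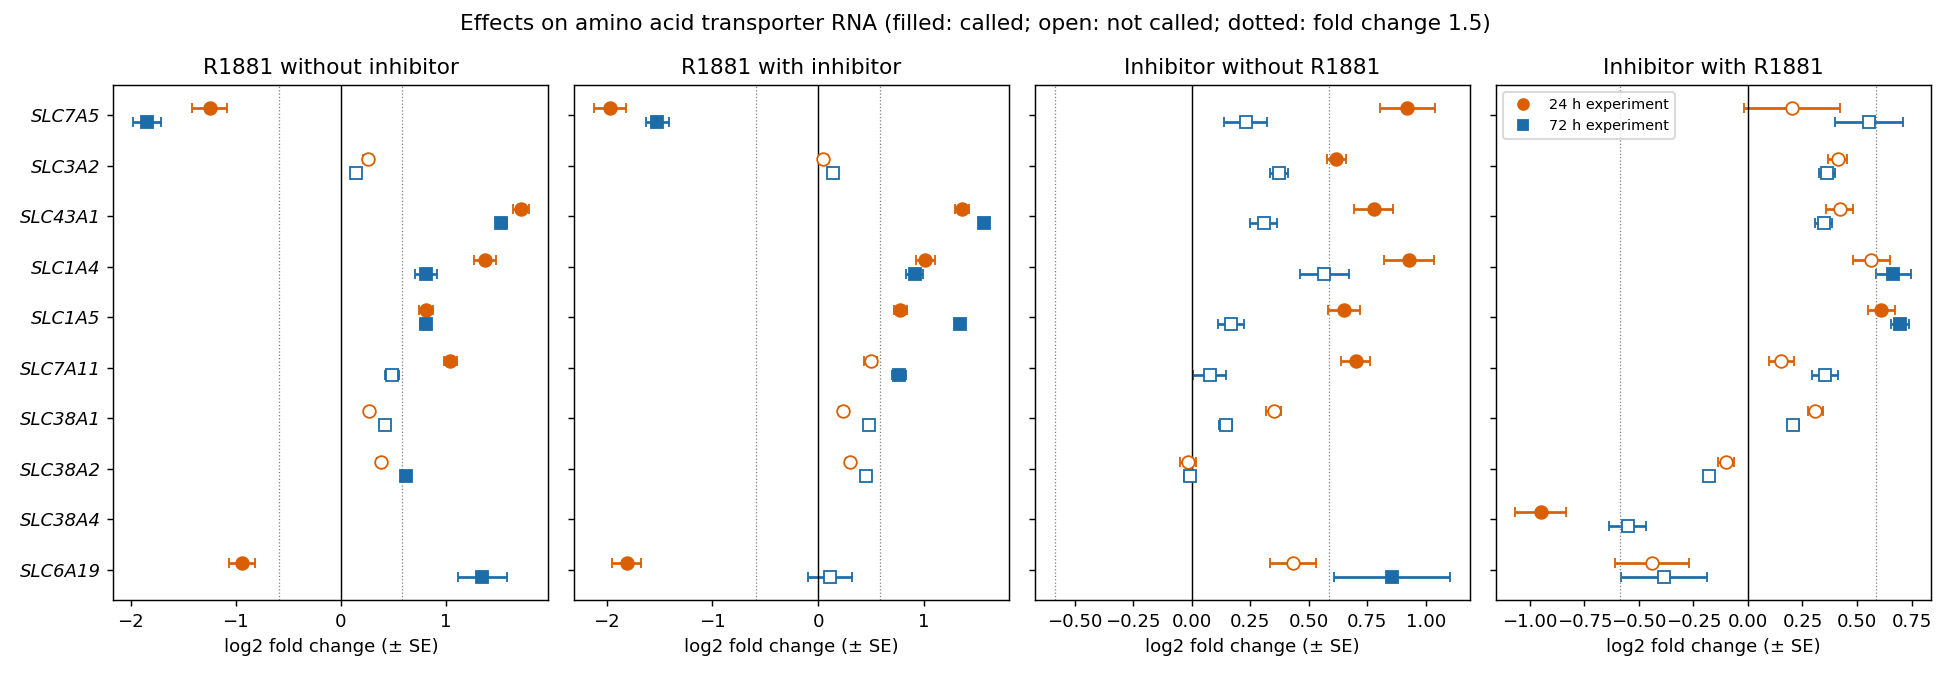
Log2 fold change ± SE of each transporter for R1881 without and with inhibitor and for inhibitor without and with R1881, with filled points for called values and dotted lines at a fold change of 1.5. SLC7A5 lies to the left for R1881 in both experiments, and 6 transporters are filled for Senexin B without R1881. SLC38A4 is drawn only for inhibitor with R1881, since its counts without R1881 were 0 to 4.

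The second question was what Mediator kinase inhibition did without androgen. Senexin B raised 6 of the 10 transporters at 24 h and lowered 0, when 3.79% of all genes were called (2.02% higher, 1.77% lower). The median log2 fold change of the 10 was 0.67. SNX631 raised 1 and lowered 0 at 72 h, when 4.77% of all genes were called (2.82% higher, 1.94% lower), with a median of 0.20. Both medians and both counts include SLC38A4, at 1.96 with Senexin B and -1.37 with SNX631. It held 0 to 4 counts per library in these groups, so those 2 values cannot be read. The inhibitors were given at different doses and for different times, so their values stand side by side. Libraries with and without inhibitor did not overlap for 8 of 10 transporters with Senexin B and 7 of 10 with SNX631, when 45.6% and 33.0% of all genes did not.

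The 6 that rose with Senexin B were SLC1A4, SLC7A5, SLC43A1, SLC7A11, SLC1A5 and SLC3A2. SLC1A4 held 9.69, 11.4 and 9.65 CPM with Senexin B and rose by 0.93 ± 0.11 on the log2 scale (SE, FDR 2.61e-08 by edgeR). SLC7A5 held between 9.42 and 12.0 CPM and rose by 0.92 ± 0.12 (SE, FDR 2.01e-07 by edgeR). SLC7A5 thus moved up with Senexin B and down with R1881, whereas SLC1A4 moved up with both. SLC43A1 rose by 0.78 ± 0.08 (SE, FDR 6.90e-09 by edgeR), SLC7A11 by 0.70 ± 0.06 (SE, FDR 2.04e-10 by edgeR) and SLC1A5 by 0.65 ± 0.07 (SE, FDR 4.37e-09 by edgeR). SLC3A2 held 128, 134 and 133 CPM and rose by 0.62 ± 0.04 (SE, FDR 2.84e-13 by edgeR), although with library totals as the only scaling its value was 0.58 and under the fold limit.

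The SLC38 members did not join them at the fold limit. SLC38A1 had a log2 fold change of 0.35 ± 0.03 with Senexin B (SE, FDR 4.92e-10 by edgeR), and SLC38A2 one of -0.016 ± 0.035 (SE, FDR 0.764 by edgeR). With SNX631 at 72 h the values were 0.14 ± 0.03 for SLC38A1 (SE, FDR 7.64e-05 by edgeR) and -0.0085 ± 0.024 for SLC38A2 (SE, FDR 0.820 by edgeR). SLC38A4 held at most 2 counts in any library with inhibitor alone.

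With SNX631 alone, the 1 gene called was SLC6A19, which held 3.02, 1.45, 2.22 and 1.43 CPM against 0.945 to 1.20 CPM with vehicle, a log2 fold change of 0.85 ± 0.25 (SE, FDR 0.00593 by edgeR). The library of replicate 1 was the highest, and without it the log2 fold change was 0.61 (FDR 0.0626 by edgeR). The call was also lost without replicate 3 of SNX631 (0.80), without any 1 of the vehicle libraries, and by DESeq2 (adjusted p 0.0122). SLC1A4 had a log2 fold change of 0.57 ± 0.10 (SE, FDR 3.11e-05 by edgeR) and SLC3A2 one of 0.37 ± 0.04 (SE, FDR 1.66e-10 by edgeR), both under the fold limit. SLC7A5 and SLC7A11 had values of 0.23 ± 0.09 (SE, FDR 0.0483 by edgeR) and 0.077 ± 0.070 (SE, FDR 0.419 by edgeR). These last 2 were called in the difference between the experiments, at -0.69 ± 0.15 for SLC7A5 (SE, FDR 0.00222 by edgeR) and -0.62 ± 0.11 for SLC7A11 (SE, FDR 0.000111 by edgeR), when 0.474% of all genes were called (0.348% higher, 0.126% lower). SLC7A5 lost the call without replicate 2 of Senexin B (-0.59, FDR 0.0190 by edgeR), and SLC7A11 lost it without replicate 1 of Senexin B (-0.58), replicate 1 of SNX631 (-0.56) or replicate 2 of SNX631 (-0.55), each then under the fold limit.

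The third question was what the inhibitors did in the presence of androgen. Senexin B with R1881 raised 1 transporter and lowered 1 against R1881 alone, when 3.12% of all genes were called (1.61% higher, 1.50% lower), and SNX631 with R1881 raised 2 and lowered 0, when 4.12% were called (1.89% higher, 2.24% lower). The groups did not overlap for 8 of 10 transporters with Senexin B and 9 of 10 with SNX631, when 42.0% and 37.8% of all genes did not. Of these, SLC38A2, SLC38A4 and, with Senexin B only, SLC6A19 lay below R1881 alone and the rest above. Not called with Senexin B or SNX631 were SLC3A2 (log2 fold change 0.41 and 0.36) and SLC43A1 (0.42 and 0.35). Nor were SLC7A11 (0.15 and 0.35), SLC7A5 (0.20 and 0.56) and SLC6A19 (-0.44 and -0.39). SLC1A5 was raised by both inhibitors. It held 58.9, 56.6 and 54.5 CPM with R1881 and Senexin B against 34.4 to 39.9 CPM with R1881, a rise of 0.61 ± 0.06 on the log2 scale (SE, FDR 2.71e-09 by edgeR). With R1881 and SNX631 it held 71.8, 69.5, 73.4 and 71.1 CPM against 42.8 to 44.9 CPM, a rise of 0.70 ± 0.04 (SE, FDR 1.67e-16 by edgeR). The highest level of SLC1A5 among the 8 groups was thus with R1881 and SNX631, and no library of that group overlapped those of the group next in order. The rise with Senexin B stood at the fold limit, and the value was 0.56 without replicate 1 of R1881, 0.57 without replicate 1 of R1881 with Senexin B and 0.58 with library totals as the only scaling.

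SLC1A4 rose with SNX631 by 0.67 ± 0.08 (SE, FDR 1.18e-08 by edgeR) and had a log2 fold change of 0.57 ± 0.09 with Senexin B (SE, FDR 4.36e-06 by edgeR). SLC38A4 went the other way. It held 8.34, 8.71 and 7.04 CPM with R1881 and Senexin B, all below the R1881 libraries, and fell by 0.95 ± 0.12 on the log2 scale (SE, FDR 2.06e-07 by edgeR). With R1881 and SNX631 it held 13.7 ± 0.970 CPM (SD, n = 4), with all 4 libraries below those of R1881 alone, against 17.7 to 21.5 CPM, a log2 fold change of -0.55 ± 0.08 (SE, FDR 1.22e-06 by edgeR) that was under the fold limit. SLC38A2 had log2 fold changes of -0.10 ± 0.04 with Senexin B (SE, FDR 0.0264 by edgeR) and -0.18 ± 0.02 with SNX631 (SE, FDR 3.91e-08 by edgeR), and SLC38A1, its neighbour, had 0.31 ± 0.03 (SE, FDR 9.23e-09 by edgeR) and 0.21 ± 0.03 (SE, FDR 4.63e-08 by edgeR). In this comparison 0 transporters were called in the difference between the experiments by edgeR, when 0.210% of all genes were (0.0660% higher, 0.144% lower). An unadjusted edgeR p under 0.05 was found for 3, and the share of all genes at that limit was not computed.

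Whether inhibitor changed the androgen effect was tested as an interaction. At 24 h 1 transporter was called, when 0.577% of all genes were (0.245% higher, 0.332% lower), and at 72 h 1 transporter was called, when 1.19% were (0.373% higher, 0.821% lower). It was SLC6A19 in both, at -0.87 ± 0.19 on the log2 scale at 24 h (SE, FDR 0.00548 by edgeR) and -1.24 ± 0.32 at 72 h (SE, FDR 0.00616 by edgeR). Both stand near the FDR limit, and leaving out 1 library ended the call for 7 of 12 libraries at 24 h and 8 of 16 at 72 h, with FDRs up to 0.0305 and 0.0304. SLC7A11 had an interaction of -0.55 ± 0.09 at 24 h (SE, FDR 6.78e-05 by edgeR) and 0.28 ± 0.09 at 72 h (SE, FDR 0.0414 by edgeR). SLC1A5 had -0.039 ± 0.091 at 24 h (SE, FDR 0.897 by edgeR) and 0.53 ± 0.07 at 72 h (SE, FDR 5.11e-07 by edgeR), under the fold limit. SLC7A5 had -0.72 ± 0.25 (SE, FDR 0.106 by edgeR) and 0.32 ± 0.18 (SE, FDR 0.274 by edgeR). SLC38A4 was among those tested, but its libraries without R1881 held 0 to 4 counts, so its interaction cannot be read.

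Genes outside the 10 give the setting. Of 53 other amino acid transporters listed, 33 could be tested at 24 h and 34 at 72 h, and R1881 raised 6 and lowered 2 at 24 h and raised 4 and lowered 4 at 72 h. These are 24.2% and 23.5% of those tested, against 19.0% and 19.8% of all genes. In cells with inhibitor, R1881 raised 10 and lowered 3 under Senexin B (39.4%, against 18.9% of all genes). Under SNX631 it raised 5 and lowered 6 (32.4%, against 22.0%). SLC7A8 (LAT2), a further light chain of SLC3A2, rose by 0.77 ± 0.04 at 24 h (SE, FDR 7.66e-17 by edgeR) and by 0.92 ± 0.03 at 72 h (SE, FDR 1.60e-24 by edgeR), opposite to SLC7A5. SLC25A13, a mitochondrial aspartate/glutamate carrier, rose by 0.73 ± 0.05 and 0.76 ± 0.05 (SE, FDR 2.47e-14 and 3.04e-16 by edgeR). SLC6A20, an imino acid carrier, fell from 1.76 to 0.211 CPM at 24 h (FDR 1.67e-07 by edgeR) and from 2.41 to 0.0647 CPM at 72 h (FDR 9.69e-12 by edgeR). Both R1881 means lie below the floor of 3 counts in those libraries, so the size of the fall cannot be read. That floor was 0.263 to 0.279 CPM at 24 h and 0.246 to 0.311 CPM at 72 h. SLC38A9, the lysosomal arginine sensor, fell by 0.59 ± 0.06 and 0.65 ± 0.06 on the log2 scale (SE, FDR 6.17e-10 and 1.07e-11 by edgeR). At 24 h the call of SLC38A9 was lost without replicate 3 of vehicle (-0.57) or replicate 2 of R1881 (-0.52).

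Without R1881, Senexin B raised 3 and lowered 0 of the 33 tested (9.09%, against 3.79% of all genes), and SNX631 raised 1 and lowered 0 of the 34 tested (2.94%, against 4.77%). With R1881, Senexin B raised 1 and lowered 0 (3.03%, against 3.12%), and SNX631 raised 3 and lowered 1 (11.8%, against 4.12%). SLC16A10 (TAT1), a carrier of aromatic amino acids, rose with inhibitor under R1881 by 0.97 ± 0.10 with Senexin B and by 0.89 ± 0.08 with SNX631 (SE, FDR 1.80e-09 and 4.69e-12 by edgeR). SLC25A18, a mitochondrial glutamate carrier, rose without R1881 by 1.08 ± 0.21 with Senexin B (SE, FDR 0.000115 by edgeR) and by 0.67 ± 0.20 with SNX631 (SE, FDR 0.00866 by edgeR). The call with SNX631 was lost with library totals only (FDR 0.0115 by edgeR), in a fit of all 28 libraries (0.0177), by DESeq2 (0.0313) and without any 1 of 9 libraries.

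Of 20 genes of the amino acid response, all tested, R1881 raised 2 and lowered 1 at 24 h and raised 0 and lowered 1 at 72 h. These are 15% and 5% of the list, below the 19.0% and 19.8% of all genes called. ATF4 itself was not called in any of these contrasts. It had log2 fold changes of 0.27 ± 0.04 with R1881 (SE, FDR 4.18e-07 by edgeR) and 0.50 ± 0.04 with Senexin B (SE, FDR 4.75e-12 by edgeR) at 24 h, and of 0.024 ± 0.028 with R1881 (SE, FDR 0.464 by edgeR) and 0.055 ± 0.028 with SNX631 (SE, FDR 0.123 by edgeR) at 72 h. DDIT3 (CHOP) fell with R1881 by 0.92 ± 0.12 at 24 h and by 0.80 ± 0.11 at 72 h (SE, FDR 4.20e-08 and 5.06e-08 by edgeR). Senexin B raised 2 of the 20 and lowered 0 (10%, against 3.79% of all genes), and SNX631 raised 0 and lowered 0 by edgeR (against 4.77%). Without the fold limit, 14 had an edgeR FDR under 0.01 with Senexin B (against 25.1% of all genes) and 6 with SNX631 (against 26.9%). Their median log2 fold change was 0.36 and 0.043, against 0.00047 and 0.0019 over all genes. With SNX631, 10 had an unadjusted edgeR p under 0.05, and the share of all genes at that limit was not computed. With R1881, Senexin B raised 1 (5%, against 3.12%) and SNX631 raised 2 (10%, against 4.12%). STC2 (stanniocalcin 2) rose with inhibitor under R1881 by 0.76 ± 0.06 with Senexin B and 0.81 ± 0.05 with SNX631 (SE, FDR 3.53e-12 and 1.02e-16 by edgeR).

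The genes most alike in pattern were sought for 3 transporters by Pearson r of log2 CPM over the 28 libraries, after the mean of each experiment was subtracted. The libraries share treatments, so r describes a shared response to them. For SLC38A4 these were FECH (0.994), which inserts iron into haem, MBOAT2 (0.993), a lysophospholipid acyltransferase, and IDH1 (0.991), the cytosolic isocitrate dehydrogenase. For SLC7A5 they were TMEM144 (0.977), OPRK1 (0.975), the kappa opioid receptor, and OGFRL1 (0.973). For SLC1A4 they were MTHFD2 (0.981), a mitochondrial enzyme of folate metabolism, DUXAP9 (0.977), a pseudogene, and ENOPH1 (0.976), an enzyme of methionine salvage.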

How the data were processed

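Total RNA of LNCaP cells was sequenced from directional libraries per the labels. The authors deposited 1 table of expected counts per gene, not scaled to depth, and 16.9% of its values above 0 had a fraction. The submitters' processing notes name FastQC, cutadapt 2.8, STAR 2.7.2b, featureCounts of Subread 2.0.3, and the builds GRCh38.p13 and GRCm39. The use of strand in counting is not given in the sources used here. The 2 entries that are not human genes held 0 counts and stayed out of the fits.

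Expected counts were made whole by rounding. A separate quasi-likelihood model of edgeR 4.0.16 (R 4.3.3) with TMM scaling was used for the 4 groups of either experiment, over genes that passed filterByExpr (minimum count 10, minimum total 15), with Benjamini-Hochberg adjustment over all genes tested. Called genes had an FDR under 0.01 and more than 1.5-fold change, as in the study. Differences between the experiments were contrasts in a fit of all 28 libraries. SE is the size of the log2 fold change divided by the square root of F. CPM used TMM library sizes of that fit, and levels per length used exon lengths of GENCODE 29 on GRCh38. A floor of 3 counts was used per library. The p values measure the spread between replicates, which the labels do not tie to separate cultures, and all pairs of replicates differed beyond sampling noise. Some listed genes are not reported here. The pipeline was tested on simulated data.

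The members, gene lists and tests were chosen with earlier results of these data known. Named beyond the 10 members were up to 6 other transporters each way called the same way by R1881 in both experiments, up to 4 each way for the inhibitors, the partners SLC3A1 and CLTRN, and ATF4 with up to 3 response genes each way. The genes most alike were sought for the member with the highest and the lowest mean R1881 effect and the member with the largest mean inhibitor effect. Alternatives were the DESeq2 1.42.0 Wald test, its size factors, scaling by totals alone, other filters and limits, all libraries in 1 fit, a replicate block and leaving out each library. Plots used Python 3.11.15 and matplotlib 3.10.9.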

Additional observations from a re-analysis of the deposited data

Results flagged for a closer look

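Among the 4-library groups of the 72 h experiment, the gap of the highest or lowest library to its neighbour was set against the range of the group for each transporter, a test that chance passes in about 1 of 20 groups. It marked 2 of 40 groups, which are SLC38A1 with vehicle at 72 h, where replicate 1 was lowest at 285 CPM, and SLC38A4 with SNX631, where 1 library held 0.168 CPM (2 counts) and the others 0.

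A difference between the experiments was called for SLC6A19 in the R1881 effect (2.29 on the log2 scale, edgeR FDR 9.87e-09) and in the R1881 effect with inhibitor (1.93, edgeR FDR 1.10e-07). In the inhibitor effect without R1881 it was called for SLC7A5 (-0.69, edgeR FDR 0.00222) and SLC7A11 (-0.62, edgeR FDR 0.000111). In the R1881 difference, time, R1881 dose and experiment cannot be told apart. In the inhibitor difference without R1881, time, inhibitor with its dose and experiment cannot. In the R1881 difference with inhibitor, none of these can be told apart.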

How the results depend on the processing

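The counts of the 10 transporters called with R1881, without and with inhibitor, and with Senexin B alone stayed within 1.5 times of the reported count under every alternative, the omission of each library included. For the rest, a lower limit (FDR under 0.05, no fold limit) gave 9 called members for Senexin B with R1881, 9 for SNX631 with R1881, 7 for SNX631 alone, and 4 for each interaction. For the other transporters it gave 28 (24 h) and 23 (72 h) for R1881, 27 and 30 for R1881 under Senexin B and SNX631, 22 and 13 for Senexin B and SNX631 alone, 19 and 22 for these with R1881, and 5 and 9 for the interactions. The share of all genes at this lower limit was not computed. At an edgeR FDR under 0.01 with no fold limit it was already 48.4% and 52.2% for R1881, and 47.5% and 57.3% under Senexin B and SNX631. It was 25.1% and 26.9% for the inhibitors alone, 22.7% and 33.1% for these with R1881, and 2.09% and 7.09% for the interactions. With library totals only, R1881 fold changes at 72 h fell by 0.10 on the log2 scale without inhibitor and by 0.11 under SNX631 (medians over 14 and 9 named genes), and 1 member was called for Senexin B with R1881 and 2 in the R1881 difference between the experiments. With DESeq2 size factors 2 were called in the R1881 difference under inhibitor. The DESeq2 Wald test called 0 members for SNX631 alone (SLC6A19 padj 0.0122) and 0 for the interaction at 72 h, where it gave SLC6A19 no adjusted p. For SNX631 alone, 0 other transporters were called with library totals only, with all 28 libraries in 1 fit and with the DESeq2 Wald test, and the last called 1 in the interaction at 72 h. The cause was not tested.

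Deviations from the group mean correlated at -0.0145 to 0.0666 between same-numbered libraries at 24 h (mean 0.0142) and -0.0677 to 0.0730 at 72 h (mean -0.00874). Between differently numbered libraries the values were -0.0564 to 0.0472 (mean -0.00709) and -0.0991 to 0.0878 (mean 0.00292). The ranges overlap, so these values cannot decide whether the replicate numbers pair the libraries. The replicate block left the count of members called within 1.5 times in every contrast, called 0 other transporters for SNX631 alone, and gave SLC1A5 0.013 in the R1881 difference, opposite in sign to the reported value.

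Leaving out 1 library at a time, the members called ranged from 1 to 2 for Senexin B with R1881, 0 to 2 for the interaction at 24 h, 0 to 1 for SNX631 alone and for the interaction at 72 h, 2 to 4 for SNX631 with R1881, 1 to 3 in the R1881 difference, and 1 to 2 in the inhibitor difference without R1881 and in the R1881 difference with inhibitor. Other transporters ranged from 1 to 4 for Senexin B with R1881, 0 to 1 for the interaction at 24 h, 0 to 2 for SNX631 alone and 1 to 2 for the interaction at 72 h. The SLC6A19 interaction lost its call at 24 h without vehicle 2, Senexin B 1 or 3, R1881 1 or 3, or R1881 with Senexin B 1 or 3 (FDR up to 0.0305 by edgeR), and at 72 h without vehicle 1, 3 or 4, SNX631 1 or 3, R1881 2 or 4, or R1881 with SNX631 2 (FDR up to 0.0304 by edgeR). The rise of SLC6A19 with SNX631 was lost without vehicle 1, 2, 3 or 4 or SNX631 1 or 3 (0.61 to 0.90).

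The values that changed sign were not called at the reported setting. They were SLC3A2 for R1881 under Senexin B (-0.026 with library totals only), SLC3A2 in the interaction at 72 h (1.22e-05 without a filter, -0.036 to 0.024 over left-out libraries), SLC38A2 in the inhibitor difference without R1881 (-0.0033 with DESeq2 size factors, -0.015 to 0.032), SLC38A2 with Senexin B (-0.036 to 0.017) and SNX631 (-0.020 to 0.0083), SLC1A5 in the interaction at 24 h (-0.12 to 0.00084) and the R1881 difference (-0.051 to 0.050), SLC6A19 for R1881 under SNX631 (-0.032 to 0.35) and in the inhibitor difference with R1881 (-0.041 to 0.16), SLC7A11 with SNX631 (-0.0055 to 0.14), and SLC25A18 with Senexin B under R1881 (-0.78 to 0.31) and with SNX631 under R1881 (-0.27 to 0.19). SLC25A18 with SNX631 lost its call with the block (edgeR FDR 0.0119) and with library totals only (edgeR FDR 0.0115). Depth limits SLC6A19 at 72 h, with 11 to 39 counts per library with vehicle or R1881, and SLC7A5 with R1881 alone, with 24 to 41.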
